A study of Mus musculus with 36 samples.

Results

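The BCL-2 family decides whether a cell's mitochondria release the signals that start apoptosis, and 10 of its genes were followed here in mouse natural killer (NK) cells: Bcl2, Mcl1, Bcl2l1, Bcl2a1b and Bcl2a1d on the survival side, and Bcl2l11, Pmaip1, Bbc3, Bax and Bak1 on the death side. They were taken by exact symbol from all 4 deposited expression tables, which list 32940 genes for the sorted subsets and 56923 genes for each of the other experiments. The series holds 36 libraries, 3 in each of 12 groups. In the first experiment CD27-CD11b+ NK cells were sorted from the spleens of C57BL/6 wild-type mice (WT, B2m+/+) and of B2m-/- mice (KO), which lack the light chain of MHC class I in every cell. Each spleen population was split into triple-positive cells (TP, carrying the inhibitory receptors Ly49C, Ly49I and NKG2A), single-positive cells (SP, Ly49I alone) and triple-negative cells (TN, none of the 3). In the second, WT splenocytes were kept for 22 hours with ionomycin, a calcium ionophore, or with vehicle, and NK cells were then purified. In the third, WT splenocytes spent 48 hours in medium or on plate-bound antibodies against NKp46 and NKG2D, or against NKp46 and DNAM-1, all activating receptors. In the fourth, CD27-CD11b+ NK cells came from tumours of MC38 B2m-/- cells, a mouse colon carcinoma line without MHC class I, grown under the skin of B6 mice for 10 days. The ages and sexes of the mice are not given in the sources used here.

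In resting cells the survival proteins BCL-2, BCL-XL (Bcl2l1), MCL-1 and A1 (the Bcl2a1 genes) hold the pore formers BAX and BAK in check. BH3-only proteins tip the balance: BIM (Bcl2l11) and PUMA (Bbc3) bind all the survival proteins, whereas NOXA (Pmaip1) binds chiefly MCL-1 and A1. NK cells depend on interleukin-15, which maintains BCL-2 and MCL-1 and restrains BIM. The subset experiment bears on NK cell education, in which inhibitory receptors that meet self MHC class I set how well a resting NK cell responds.

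All values are TPM, in which each library's transcripts are scaled to a common total and corrected for gene length, so levels of different genes may be compared within a library. B2m itself lay between 2915 and 3420 TPM in the 9 WT libraries and between 73.9 and 128 TPM in the 9 KO libraries. All 9 NK marker genes were above 0 in every group. Between 12290 and 14501 genes were above 0 in a subset library. Markers of other cells were highest in the 3 KO TP libraries, where 7 neutrophil and myeloid markers summed to 62.7 to 228 TPM, against at most 14.6 TPM in the other 15. The sums of 7 B and plasma cell markers were 403 to 683 TPM in KO TP and 280 to 336 TPM in WT TN, above the 167 to 236 TPM of the other 12 libraries. S100a8, S100a9 and Ngp, which define neutrophils, were at 0 in all 3 WT TP libraries. The other 4 of these markers were each above 0 in at least 1 WT TP library. The WT TP sums were 12.1 to 14.6 TPM, against at most 6.87 TPM in WT SP, WT TN, KO SP and KO TN. In such bulk samples fewer cells expressing a gene and less of its RNA per cell cannot be told apart.

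The A1 members need care before any value is read, because they are recent copies of one gene on mouse chromosome 9. In GENCODE M21 the transcripts of Bcl2a1b and Bcl2a1d, 817 and 863 bases long, differ at 7 of 817 aligned bases, an identity of 99.14%. Those of Bcl2a1b and Bcl2a1a differ at 15 of 817. Their promoters are as close, as the stretches upstream of the annotated starts show (RefSeq promoters, GRCm38.p6). Bcl2a1b is shown from chr9:89199023-89199164 on the plus strand and Bcl2a1d from chr9:88731915-88732050 on the minus strand, each read 5′ to 3′. Capitals mark bases that are not shared by all 3 copies.
Bcl2a1b: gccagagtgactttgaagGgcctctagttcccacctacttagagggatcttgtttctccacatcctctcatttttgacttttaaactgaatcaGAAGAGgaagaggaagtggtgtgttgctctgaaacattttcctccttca
Bcl2a1d: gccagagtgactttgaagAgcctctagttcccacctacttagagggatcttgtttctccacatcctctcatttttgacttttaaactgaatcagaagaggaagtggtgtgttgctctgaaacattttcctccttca
Over this stretch Bcl2a1a was identical to Bcl2a1b, and Bcl2a1d differed by 1 base and by the lack of 6 others. Windows of 300 bases around the annotated starts were searched on both strands. The letters GGAAA, the core bound by NFAT factors, occurred once in each of the 3 copies, and in 61.3% of all 32851 mouse promoter windows. The letters TGANTCA, bound by AP-1 factors, also occurred once in each, against 7.81% of all windows. The letters GGGNNNNNCC, bound by NF-κB factors, occurred 2 times in the Bcl2a1b window, outside the printed stretch, against 50.8% of all windows. These 2 matches overlap, at bases 251 to 260 and 252 to 261 of that window. The Bcl2a1d and Bcl2a1a windows held 0, but they begin further upstream, with GGAAA at base 175 in both and at base 131 in Bcl2a1b. The place of the Bcl2a1b matches would run past the end of those windows, so the copies cannot be compared there. The GGAAA and TGANTCA matches lie in the printed stretch without overlap, from base 131 (GGAAA, on the other strand) and base 87 (TGANTCA) of Bcl2a1b. Short reads from such copies can seldom be assigned to one of them, so Bcl2a1b and Bcl2a1d are also given as a sum with Bcl2a1a, a choice made after the values were seen and used for description only.

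Mcl1 was the most abundant of the 10 members in all 18 subset libraries. In WT TP cells its mean was 220 ± 33.9 TPM (SD, n = 3). Bax followed at 118 ± 13.5 TPM and Bak1 at 97.4 ± 11.5 TPM, whose libraries overlapped. Bcl2l11 at 70.8 ± 12.7 TPM and Bcl2l1 at 67.5 ± 4.44 TPM also overlapped. Bcl2 at 58.4 ± 5.01 TPM lay below all Bcl2l1 values but overlapped Bcl2l11. PUMA (Bbc3) was at 44.9 ± 9.25 TPM. Bcl2a1b at 12.2 ± 0.777 TPM, Pmaip1 at 4.61 ± 1.29 TPM and Bcl2a1d at 4.36 ± 3.93 TPM were the scarcest. All 10 had a mean of at least 1 TPM in each of the 3 tables tested, so every member entered every test.

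Among WT subsets Bcl2 was the member that changed, and it was highest in the cells with none of the 3 receptors. It was at 61.8, 60.8 and 52.7 TPM in the WT TP libraries, at 75.8, 81.8 and 75.3 TPM in SP and at 100.4, 98.8 and 97.4 TPM in TN. No library of one subset overlapped one of another, and the order was TP, SP, TN. In TN against TP cells the log2 change of (TPM + 1) was 0.75 (95% interval 0.49 to 1.01, limma adjusted p = 0.00284). This was 1 of 10 members, beside 1.31% of all genes tested in that comparison. When only the 6 compared libraries entered the fit, the adjusted p was 0.0831. In all 6 fits with 1 library left out it passed. Markers also moved in this comparison. The NK marker sums were 17773 to 18370 TPM in WT TN and 20557 to 21803 TPM in WT TP, and 4 of 9 NK markers passed the test: Eomes higher (0.73), and Gzma, Prf1 and Ncr1 lower (-0.32, -0.33 and -0.25). B and plasma cell markers summed to 280 to 336 TPM in WT TN against 167 to 180 TPM in WT TP, and Ighm was higher by 1.02 (log2), 1 of 4 tested. Their part in the Bcl2 change was not tested. The intermediate steps did not pass the test: SP against TP gave 0.41 (adjusted p = 0.339) and TN against SP 0.35 (adjusted p = 0.252).

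**Figure D1:**
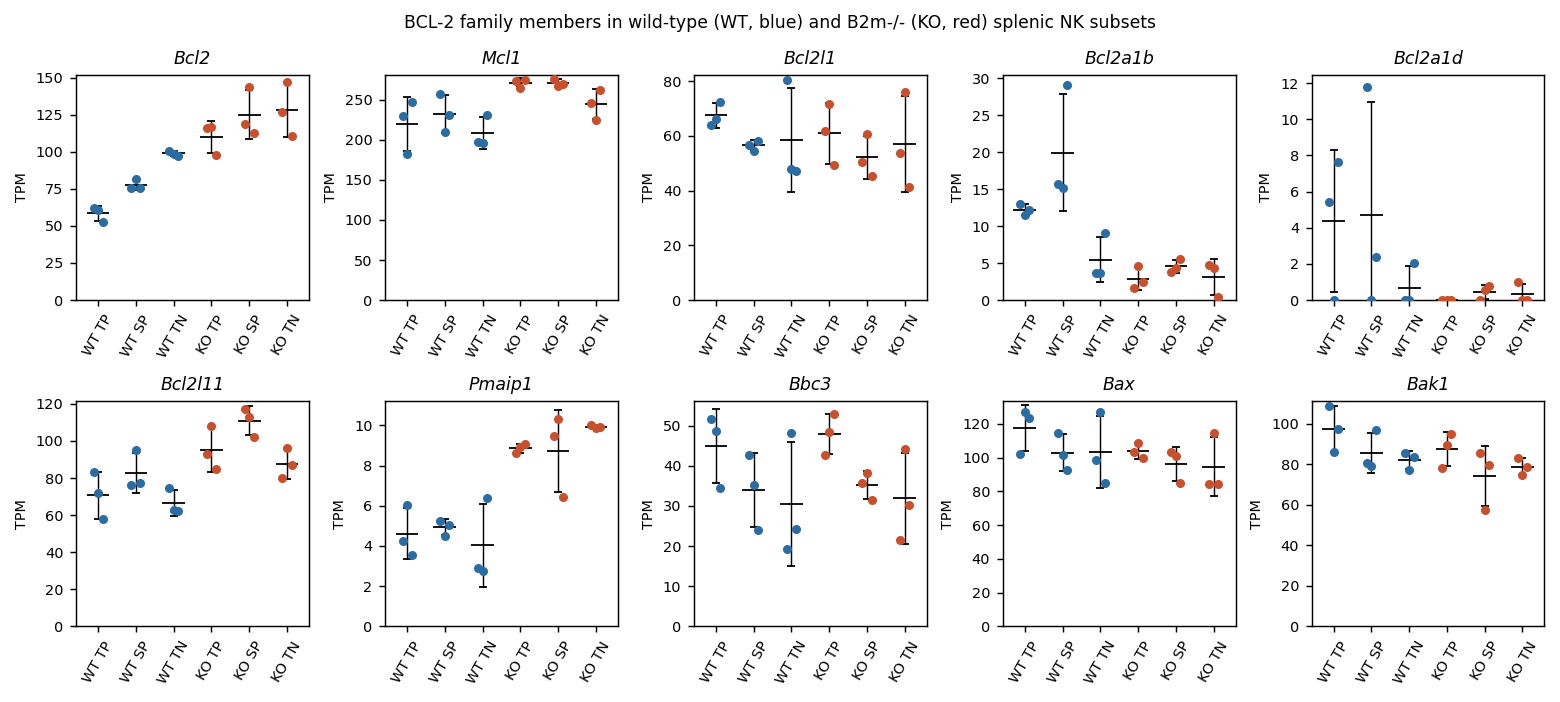
TPM of the 10 members in each library (points) of the 6 subset groups, WT in blue and KO in red, with group means (lines) and SD (bars), n = 3. Bcl2 steps from 52.7 to 61.8 TPM in WT TP to 97.4 to 100.4 TPM in WT TN, and all 9 KO libraries lie between 97.8 and 147 TPM.

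No member passed the test in WT SP against TP, where limma called 0.191% of all genes, nor in WT TN against SP, where it called 0.383%. At an unadjusted p under 0.05 there was 1 of 10 members in the former (Bcl2), beside 7.71% of all genes, and 3 in the latter (Bcl2, Bcl2l11 and Bcl2a1b), beside 12.1%. Bcl2a1b was at 15.6, 15.1 and 29.0 TPM in WT SP and at 3.71, 3.64 and 9.01 TPM in WT TN, with no overlap and a log2 change of -1.73 (95% interval -2.78 to -0.69, adjusted p = 0.157). With the copies summed, A1 was at 27.4, 15.1 and 31.4 TPM in WT SP against 3.71, 3.64 and 11.1 TPM in WT TN. Both A1 genes thus had their lowest WT means in TN, where Bcl2 had its highest. PUMA was at 51.7, 48.8 and 34.4 TPM in WT TP and at 19.3, 48.1 and 24.2 TPM in WT TN, which overlapped (-0.63, adjusted p = 0.405). Bax, Bak1, Bcl2l1 and Mcl1 had log2 changes between -0.25 and 0.09 over the 3 WT comparisons, and none passed the test.

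In KO mice no member passed the test between subsets. The Bcl2 values were 116, 117 and 97.8 TPM for KO TP, 119, 144 and 113 TPM for KO SP and 127, 147 and 110 TPM for KO TN. The 3 groups overlapped, with a log2 change of 0.21 for TN against TP (95% interval -0.05 to 0.47, adjusted p = 0.869). The step from TP to TN was smaller in KO than in WT by 0.54 (95% interval of the difference -0.91 to -0.17), which did not pass the test over all genes (adjusted p = 0.623, with 0.025% of all genes called). No member was called in KO TN against TP, SP against TP or TN against SP, where 0.524%, 0.2% and 0.0416% of all genes were. At an unadjusted p under 0.05 the members numbered 0, 0 and 1, the last being Bcl2l11, beside 6.43%, 2.93% and 2.77% of all genes.

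Bcl2 had a higher mean in KO than in WT cells of each subset, and it passed the test in TP and SP cells. Bcl2 rose in KO TP cells, to 110 ± 10.8 TPM (SD, n = 3) from 58.4 ± 5.01 TPM, with a log2 change of 0.90 (95% interval 0.64 to 1.16, adjusted p = 0.000362). All 3 KO TP libraries lay above all 3 WT TP libraries. The comparison called 1.59% of all genes and 1 of 10 members, and 6 members had an unadjusted p under 0.05, beside 11.8% of all genes. Bcl2 passed the test under all 13 alternatives tried. It rests on the same WT TP libraries as the comparison of WT TN with TP. Neutrophil and myeloid, B and plasma cell and T cell markers were also higher in the KO TP libraries. Of the markers tested 3 of 4, 1 of 4 and 1 of 2 were called higher, in that order. T cell markers summed to 12.5 to 16.6 TPM in KO TP and 3.35 to 4.96 TPM in WT TP. The part of these markers in the Bcl2 change was not tested. In SP cells, whose KO libraries had a neutrophil and myeloid sum of at most 4.89 TPM, Bcl2 rose to 125 ± 16.5 from 77.6 ± 3.62 TPM.

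The change in SP cells was 0.67 (95% interval 0.41 to 0.93, adjusted p = 0.00700), without overlap. Here 1.35% of all genes and 1 of 10 members were called, and 4 members had an unadjusted p under 0.05, beside 11.7% of all genes. The call was lost without KO SP replicate 2, the highest of the KO SP libraries (adjusted p = 0.0616), and with only the compared groups in the fit (0.0665). In TN cells Bcl2 was at 128 ± 18.5 TPM in KO and 98.8 ± 1.49 TPM in WT. These groups did not overlap either, yet the change of 0.36 (95% interval 0.10 to 0.62) had an adjusted p of 0.263. No member was called in TN cells, where 0.716% of all genes were and 4 members had an unadjusted p under 0.05, beside 10.5% of all genes.

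The BH3-only genes Bcl2l11 and Pmaip1 were also higher in KO cells of each subset, without passing the test. The KO TP libraries had 93.1, 108 and 84.8 TPM of BIM (Bcl2l11), against 83.0, 71.7 and 57.7 TPM with WT. The groups did not overlap for TP, SP or TN, and their log2 changes were 0.43, 0.42 and 0.40 (adjusted p = 0.185, 0.212 and 0.308). NOXA was scarce throughout. Its KO TP libraries had 8.60, 8.93 and 9.05 TPM, and its WT TP libraries 4.24, 6.04 and 3.55 TPM. The TN libraries had 10.02, 9.85 and 9.93 TPM with KO cells and 2.92, 2.75 and 6.40 TPM with WT cells. The difference was 0.84 for TP (log2, adjusted p = 0.221), 0.69 for SP (0.358) and 1.20 for TN (0.0850), again without overlap. In TN it passed the test without WT TN replicate 3 (adjusted p = 0.0181).

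A1 differed in the opposite direction. Bcl2a1b was at 1.59, 4.62 and 2.46 TPM in KO TP cells, against 13.0, 11.5 and 12.1 TPM in WT TP, with a log2 change of -1.84 (95% interval -2.88 to -0.79, adjusted p = 0.0823). In KO SP cells it was at 3.73, 4.29 and 5.57 TPM, below the WT SP libraries given above, with a log2 change of -1.87 (adjusted p = 0.0804). The groups overlapped only in TN, where the change was -0.80 (adjusted p = 0.599). No KO TP library had Bcl2a1d above 0, and it reached 7.64 TPM with WT TP, where 1 library was also at 0. The summed A1 level was 1.59 to 6.42 TPM in KO TP against 11.5 to 20.2 TPM in WT TP, and 3.73 to 6.32 TPM in KO SP against 15.1 to 31.4 TPM in WT SP. The sums, too, did not overlap between genotypes in TP and SP.

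Mcl1 had a log2 difference of 0.32 for TP (adjusted p = 0.211), 0.22 for SP (0.444) and 0.23 for TN (0.471), without overlap between genotypes for TP and SP. Its KO TP libraries had 274, 265 and 275 TPM and its WT TP libraries 230, 182 and 247 TPM. Bax, Bak1, Bcl2l1 and Bbc3 overlapped between genotypes in all 3 subsets. Their log2 changes lay between -0.21 and 0.11.

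**Figure D2:**
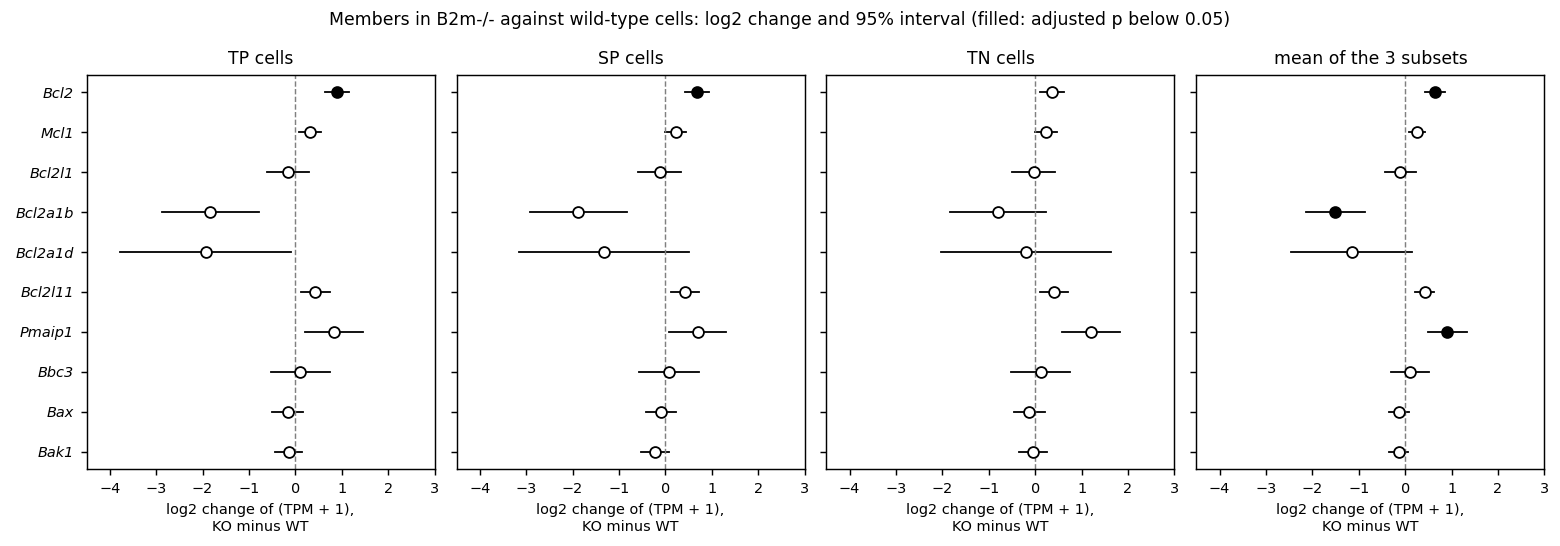
Log2 change of (TPM + 1) between KO and WT cells (points) with 95% intervals (lines) for the 10 members, in TP, SP and TN cells and for the mean of the 3 subsets. Filled points passed the test: Bcl2 in TP (0.90), SP (0.67) and the mean (0.65), and in the mean also Bcl2a1b (-1.50) and Pmaip1 (0.91).

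The genotypes were also compared on the mean of the 3 subsets of each replicate number, 3 KO against 3 WT means. This comparison was added after the values above were seen. The labels do not say whether a number marks the same mouse across subsets. Deviations of same-numbered subset libraries correlated at 0.01 on average, so the means are not shown to be single mice. It called 1.86% of all genes and 3 of 10 members. Bcl2 rose by 0.65 (95% interval 0.43 to 0.86, adjusted p = 0.0131) and Pmaip1 by 0.91 (0.49 to 1.33, adjusted p = 0.0494), and Bcl2a1b fell, with a change of -1.50 (-2.14 to -0.86, adjusted p = 0.0371). For BIM the change was 0.42 (0.20 to 0.63, adjusted p = 0.0694) and for Mcl1 0.26 (0.08 to 0.44, adjusted p = 0.146). Bcl2a1d, at -1.15, had a wide interval of -2.46 to 0.16. The calls were near the threshold: with 1 mean left out Bcl2 stayed called in 2 of 6 cases (adjusted p = 0.0283 to 0.107) and Bcl2a1b and Pmaip1 in none (0.0769 to 0.186 and 0.0821 to 0.220).

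Outside the 10 members, the clearest difference between the genotypes in this family was in Bmf, a BH3-only death gene whose protein is released by stress to the cytoskeleton and binds the survival proteins. It came from a list of 16 further BCL-2 family genes, of which 9 rows passed the filter in the subset table. One of these rows carries the Bcl2l2 symbol but has the identifier of Pabpn1 and was not read as Bcl2l2. The WT TP libraries had 11.6, 45.7 and 18.6 TPM of Bmf and the KO TP libraries 0.52, 1.15 and 0.35 TPM. It was at 26.6, 15.5 and 31.2 TPM in WT TN and at 1.68, 0.69 and 0.84 TPM in KO TN. The genotypes lay far apart in both. Bmf fell in TP cells, with a log2 change of -3.78 (95% interval -4.78 to -2.79, adjusted p = 0.000153), and in TN cells, with -3.59 (-4.59 to -2.60, adjusted p = 0.000471). Both calls held under all 13 alternatives. The KO TN libraries, unlike KO TP, had a neutrophil and myeloid sum of at most 5.54 TPM. In SP cells it was at 13.2, 22.4 and 23.7 TPM in WT and 2.86, 10.5 and 6.12 TPM in KO. The change there was -1.57 (-2.56 to -0.58, adjusted p = 0.134). Over the mean of the subsets its change was -2.98 (-3.52 to -2.44, adjusted p = 0.000395). It was the 1 row of 9 called in this list in TP, in TN and over the mean, beside 1.59%, 0.716% and 1.86% of all genes. None was called in SP, beside 1.35%. The cause of the Bmf difference between the KO and WT mice was not tested.

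**Figure D3:**
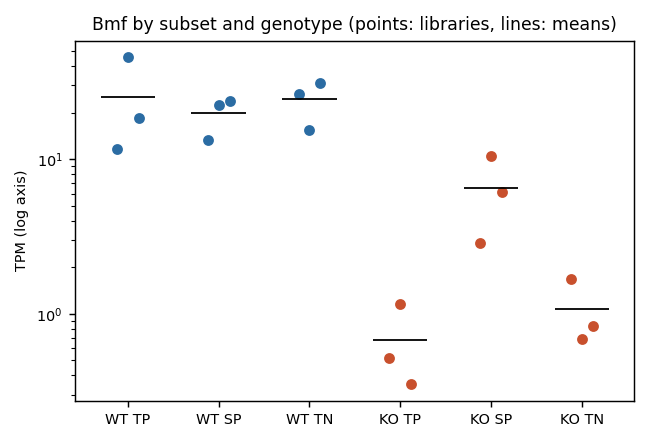
TPM of Bmf (log axis) in each library (points) of the 6 subset groups with group means (lines). The 9 WT libraries lie between 11.6 and 45.7 TPM, and the KO TP and TN libraries between 0.35 and 1.68 TPM.

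Few of the other apoptosis genes passed the test in the subsets. Of 20 caspase, apoptosome and inhibitor genes none was called in any genotype comparison. Among WT subsets 1 was called, in TN against SP cells, beside 0.383% of all genes. This was Cycs, which encodes cytochrome c, at 4.16 to 5.47 TPM in WT TN and 11.9 to 24.6 TPM in WT SP (log2 change -1.71, limma adjusted p = 0.0312). Of 21 upstream regulators 2 rose in WT TN against TP cells, beside 1.31% of all genes called there. Nfkb1, the NF-κB subunit p50, rose from 191 to 211 TPM in TP libraries to 279 to 290 TPM in TN (log2 change 0.52, adjusted p = 0.00167), and Myc from 26.2 to 41.2 TPM to 53.9 to 64.3 TPM (0.76, adjusted p = 0.0389). The median log2 change of this list was 0.07 in that comparison, beside -0.01 over all genes. Cycs stayed called in 2 of 6 cases with 1 library left out, Myc in 1 of 6 and Nfkb1 in all 6. With only the compared groups in the fit none of the 3 was called (adjusted p = 0.408 for Cycs, 0.319 for Myc and 0.0944 for Nfkb1).

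With ionomycin the largest differences among the members were in A1, although none passed the test. Bcl2a1b was at 125, 131 and 128 TPM with ionomycin and at 21.9, 18.8 and 0 TPM with vehicle, with no overlap and a log2 change of 4.07 (95% interval 1.70 to 6.43, adjusted p = 0.0849). Bcl2a1d was at 52.8, 50.1 and 41.3 TPM against 20.1, 9.07 and 17.4 TPM, also without overlap (1.63, interval 0.79 to 2.48, adjusted p = 0.0560). The summed A1 level was 177, 181 and 169 TPM with ionomycin and 42.1, 27.8 and 17.4 TPM with vehicle. The promoters of both copies are those printed above, and the part of their motifs in these differences was not tested.

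By the threshold used, 0 of 10 members were called with ionomycin, where limma called 2.91% of all genes, and 2 members, both A1 copies, had an unadjusted p under 0.05, beside 15.1% of all genes. The count turned on the vehicle libraries. Without vehicle replicate 3, in which Bcl2a1b was listed at 0, 3 members were called: Bcl2a1b and Bcl2a1d higher and Bcl2l1 lower. The change of Bcl2a1b was then 2.60 (adjusted p = 0.00240). Without vehicle replicate 1 both A1 copies were called. Vehicle replicate 3 also had a neutrophil and myeloid sum of 282 TPM and ionomycin replicate 3 one of 122 TPM, against at most 8 TPM in the other 4, with Csf1r, Csf3r and Cd14 at 0 in all vehicle libraries. The A1 sums of the other 4 were 177 and 181 TPM with ionomycin and 42.1 and 27.8 TPM with vehicle.

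Bcl2l1 was at 125, 53.1 and 12.8 TPM with vehicle, so its libraries lay far apart within that group. With ionomycin it was at 23.8, 17.8 and 10.9 TPM, overlapping the vehicle libraries at the low end (log2 change -1.36, 95% interval -3.01 to 0.29, adjusted p = 0.444). Bcl2 was at 56.6, 52.3 and 65.4 TPM against 85.2, 92.7 and 62.0 TPM, with overlap (-0.44, adjusted p = 0.492). The mean of BIM was 248 ± 33.6 TPM after ionomycin, against 260 ± 85.8 TPM after vehicle (SD, n = 3). It was the most abundant member in 2 of the 6 libraries, both with ionomycin, and Mcl1 in the other 4. Mcl1, Bax, Bak1, Bbc3 and Pmaip1 had log2 changes between -1.09 and -0.28, and all overlapped. NK marker genes summed to 5735 to 7185 TPM with ionomycin and 7756 to 13280 TPM with vehicle. All 9 stayed above 0, and 2 of 9 were called lower, beside 2.91% of all genes called. T cell markers summed to 13.2 to 25.3 TPM with ionomycin and 2.24 to 7.87 TPM with vehicle, with 0 of 3 tested called. The part of these markers in the values of the members was not tested.

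Among the 20 caspase, apoptosome and inhibitor genes 1 fell with ionomycin, beside 2.91% of all genes called. This was Birc3, an inhibitor of apoptosis that acts in NF-κB signalling. The levels were 188, 191 and 129 TPM against 356, 519 and 317 TPM, without overlap (log2 change -1.22, adjusted p = 0.0460). The median of that list was -0.49, beside -0.0044 over all genes. The Birc3 call held in 2 of 6 cases with 1 library left out. Bmf, at 1.38, 1.62 and 29.95 TPM with vehicle and 18.4, 11.8 and 76 TPM with ionomycin, overlapped (adjusted p = 0.383).

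Fitted without a replicate block, the antibody experiment called no member either, and both antibody pairs were compared with the same 3 medium libraries. By limma 0.431% of all genes were called for NKp46 and NKG2D against medium and 0.782% for NKp46 and DNAM-1 against medium, with 5 members at an unadjusted p under 0.05 in each, beside 15.1% and 18% of all genes. With a replicate block 3 members (Bcl2, Bak1 and Bcl2a1d) were called on NKp46 and DNAM-1 antibodies, beside 3.86% of all genes. On NKp46 and NKG2D antibodies 0 members were called with it, beside 1.75%. The column names repeat the same replicate numbers in each condition, and the labels do not say whether a number marks a shared mouse. The tests below are without the block. Bak1, the pore former, was at 29.8, 55.2 and 48.2 TPM in medium. It was at 81.8, 75.6 and 87.3 TPM on NKp46 and NKG2D antibodies and at 66.8, 86.7 and 90.6 TPM on NKp46 and DNAM-1 antibodies. Neither antibody group overlapped medium, and the changes were 0.91 (95% interval 0.42 to 1.40, adjusted p = 0.126) and 0.89 (0.40 to 1.39, adjusted p = 0.101).

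A1 was already abundant in medium, with Bcl2a1b at 112, 158 and 139 TPM. On NKp46 and DNAM-1 antibodies it was at 188, 203 and 210 TPM (log2 change 0.56, interval 0.27 to 0.86, adjusted p = 0.0906), and on NKp46 and NKG2D antibodies at 184, 162 and 172 TPM (0.35, adjusted p = 0.259). Neither group overlapped medium. Bcl2a1d was at 142, 121 and 167 TPM on NKp46 and DNAM-1 antibodies, above the 48.2, 74.6 and 94.5 TPM of medium (1.02, interval 0.47 to 1.56, adjusted p = 0.0993). Bcl2a1d passed the test without medium replicate 3 (adjusted p = 0.0312). Summed A1 was 160 to 233 TPM in medium, 270 to 310 TPM on NKp46 and NKG2D antibodies and 325 to 377 TPM on NKp46 and DNAM-1 antibodies.

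**Figure D4:**
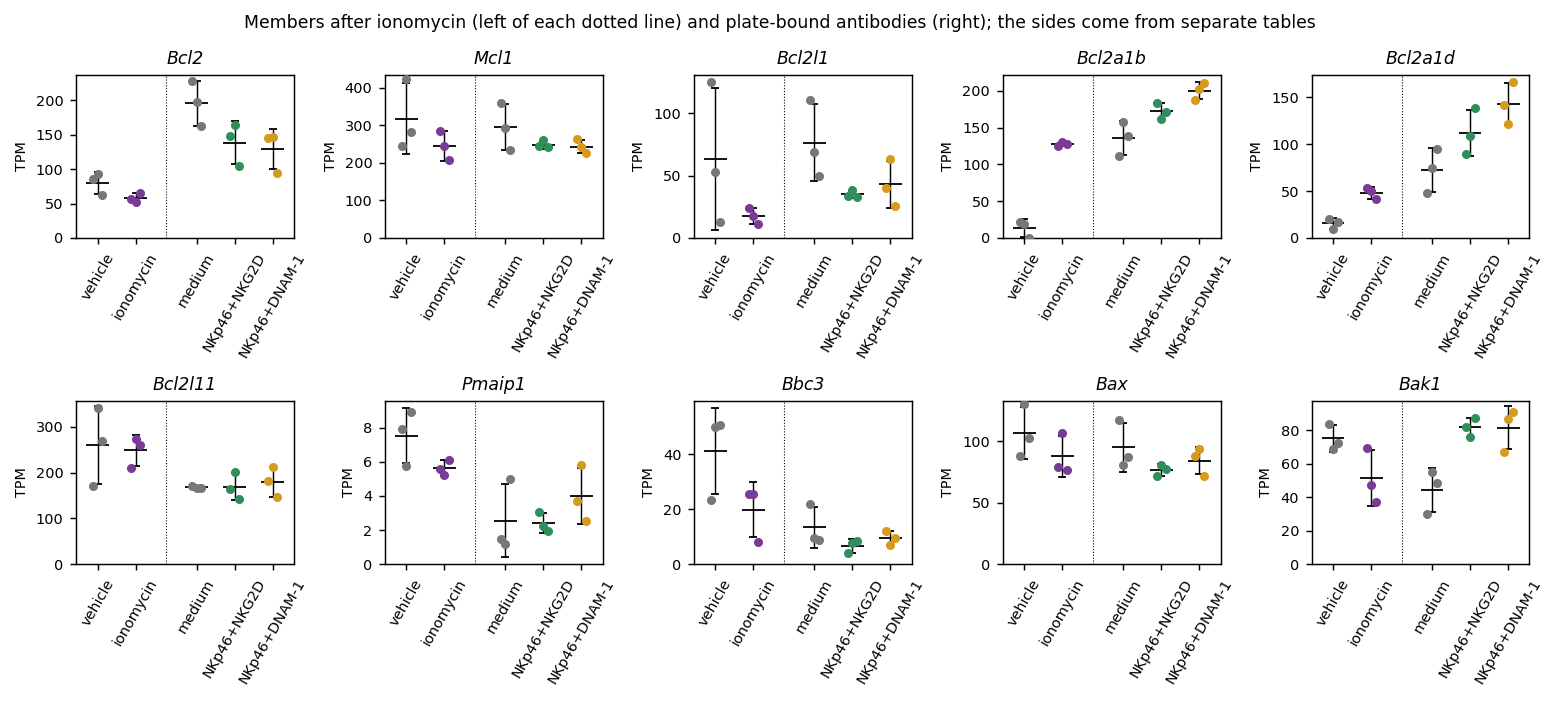
TPM of the 10 members in each library (points) with vehicle or ionomycin (left of each dotted line) and in medium or on antibodies (right), with means (lines) and SD (bars), n = 3. The sides come from separately made tables and are not compared. Bcl2a1b is at 0 to 21.9 TPM with vehicle and 125 to 131 TPM with ionomycin.

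Of the survival genes, Bcl2 was at 228, 198 and 162 TPM in medium, at 148, 164 and 104 TPM on NKp46 and NKG2D antibodies and at 145, 147 and 94.95 TPM on NKp46 and DNAM-1 antibodies. Only the latter did not overlap medium (log2 changes -0.51 and -0.61, adjusted p = 0.312 and 0.199). Bcl2l1 was at 111, 68.9 and 50.1 TPM in medium and at 34.1, 38.5 and 33.0 TPM on NKp46 and NKG2D antibodies (-1.03, adjusted p = 0.207), without overlap. On NKp46 and DNAM-1 antibodies it was at 40.2, 63.2 and 25.6 TPM, with overlap (-0.83, adjusted p = 0.240). Mcl1 was the most abundant member in all 9 libraries. BIM was at 168 ± 2.69 TPM in medium, 169 ± 30.0 TPM on NKp46 and NKG2D antibodies and 180 ± 32.8 TPM on NKp46 and DNAM-1 antibodies, all overlapping. Between the antibody pairs no member was called (0.0146% of all genes were), and none had an unadjusted p under 0.05, beside 1.22% of all genes.

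For 6 of the 9 antibody libraries the sample title names another condition than the column of the table, and the groups here follow the columns. The 3 libraries on which both agree are medium replicate 1, NKp46 and NKG2D replicate 2 and NKp46 and DNAM-1 replicate 3. In them Bak1 was at 29.8, 75.6 and 90.6 TPM, Bcl2a1b at 112, 162 and 210 TPM, and Bcl2 at 228, 164 and 94.95 TPM. Grouped by title, no member was called. The change of Bak1 was then 0.38 on NKp46 and NKG2D and 0.40 on NKp46 and DNAM-1 antibodies. That of Bcl2a1b was 0.14 and 0.12, and that of Bcl2a1d 0.23 and 0.60, in the same order. For Bcl2l1 it was 0.05 and -0.60 and for Bcl2 -0.02 and -0.53, so the difference of either gene on NKp46 and NKG2D antibodies was close to 0 by the titles. Handling stress genes such as Fos and Junb summed to 811 to 1259 TPM in medium and 322 to 371 TPM on antibodies. Genes above 0 numbered 13555 to 14674 in medium and 16107 to 18096 on antibodies. The part of either in these values was not tested.

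Of the 21 upstream regulators 1 fell on NKp46 and DNAM-1 antibodies against medium, beside 0.782% of all genes called. Atf4, a stress-response factor that drives several BH3-only genes, was at 261, 287 and 289 TPM against 489, 376 and 427 TPM in medium (log2 change -0.62, adjusted p = 0.0337). With groups taken from titles its change was 0.01 (adjusted p = 0.995). On NKp46 and NKG2D antibodies Atf4 was at 286, 307 and 302 TPM (-0.52, adjusted p = 0.0819). The call held in 2 of 6 cases with 1 library left out.

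In NK cells from MHC class I-deficient tumours the death gene Bcl2l11 led the order of members. The column names hold B2MKO and SP, whereas the titles give CD27-CD11b+ cells and the genotype label is WT, and what the column names refer to is not stated. There is no control group, so levels only are given. BIM was the most abundant member, at 436, 457 and 357 TPM, above Mcl1 at 359, 333 and 276 TPM in each of the 3 libraries, although the ranges overlapped. Bcl2 followed at 164, 162 and 148 TPM. Then came Bcl2a1b at 107, 86.5 and 61.7 TPM and Bax at 74.4, 73.4 and 77.1 TPM, which overlapped.

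The rest were lower. Bak1 was at 64.5 ± 8.02 TPM, PUMA at 56.4 ± 9.82 TPM, Bcl2a1d at 48.0 ± 17.9 TPM and Bcl2l1 at 43.3 ± 6.23 TPM (SD, n = 3), each overlapping its neighbour. NOXA was at 25.2, 11.5 and 23.1 TPM. Handling stress genes summed to 4375 to 9780 TPM, and 6 tumour and stroma markers to 128 to 1020 TPM, with Krt18 at 0 and the others above 0 in at least 1 library. Their part in these levels was not tested.

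**Figure D5:**
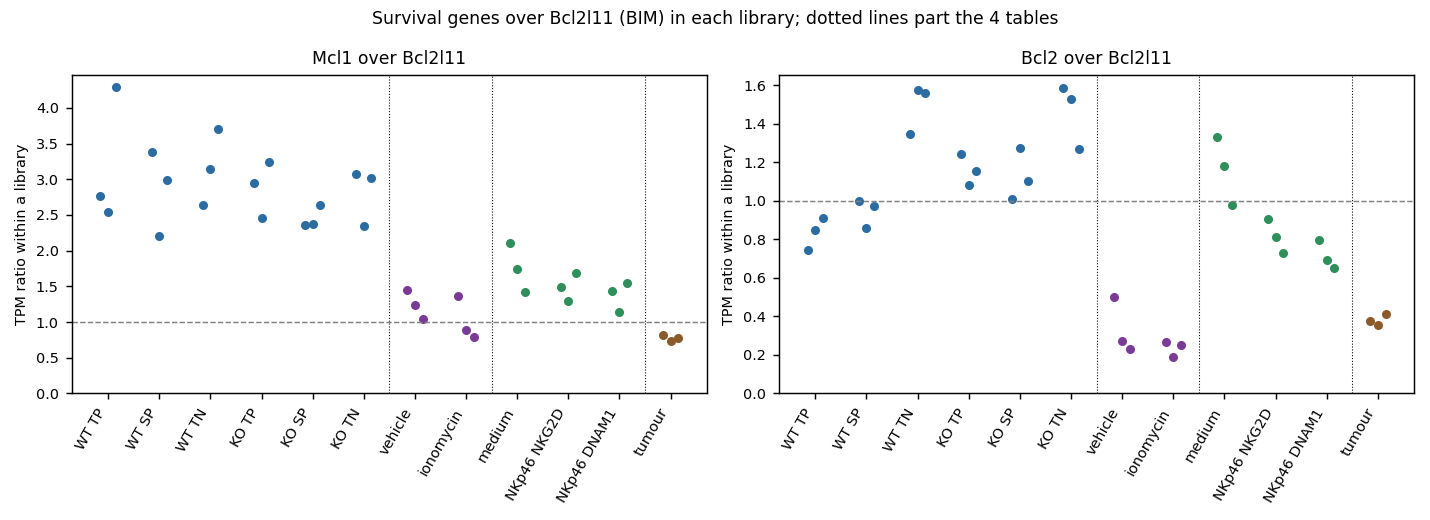
Ratio of Mcl1 to Bcl2l11 TPM (left) and of Bcl2 to Bcl2l11 TPM (right) within each library (points), with dotted lines between the 4 tables and a dashed line at 1. Mcl1 exceeds Bcl2l11 in all subset and antibody libraries and is at 0.73 to 0.82 of it in the tumour libraries, and the ratio of Bcl2 to Bcl2l11 is above 1 in all KO and all WT TN libraries and below 1 in all WT TP and SP libraries.

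Within each library, the ratio of a survival gene to BIM does not depend on the scaling of that library. The 4 tables were made separately and are not compared. Mcl1 over Bcl2l11 ranged from 2.20 to 4.29 in the subset libraries. With vehicle it was 1.05 to 1.44 and with ionomycin 0.79 to 1.36, which overlapped. In the antibody table it was 1.42 to 2.10 in medium, 1.29 to 1.69 on NKp46 and NKG2D antibodies and 1.14 to 1.55 on NKp46 and DNAM-1 antibodies, all overlapping. The tumour libraries lay between 0.73 and 0.82. The ratio of Bcl2 to Bcl2l11 had a mean of 0.84 ± 0.09 for WT TP, 0.94 ± 0.07 for WT SP and 1.50 ± 0.13 for WT TN (SD, n = 3). WT TN did not overlap the other WT groups. The KO means were 1.16 ± 0.08 for TP, 1.13 ± 0.13 for SP and 1.46 ± 0.17 for TN. In the antibody table it was 0.98 to 1.33 in medium and 0.65 to 0.91 on antibodies, without overlap. Grouped by title it was 0.80 to 1.33 in medium, 0.69 to 1.18 on NKp46 and NKG2D antibodies and 0.65 to 0.98 on NKp46 and DNAM-1 antibodies, and medium overlapped both. In the tumour libraries it was 0.36 to 0.41.

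Over the 18 subset libraries, which share their groups, the gene most like a member was taken by Pearson's r of log2 (TPM + 1) among up to 9349 candidates. For Bcl2 it was Tigit, an inhibitory receptor (r = 0.94). For Mcl1 it was Gadd45a, a stress and p53 target (r = 0.88), and for Pmaip1 it was Tsc22d3, the glucocorticoid-induced leucine zipper (r = 0.88). Bcl2a1b was most like Camk2n1 (r = 0.84), Bbc3 like Fam177a2 (r = 0.83), Bcl2a1d like Arpc5 (r = 0.82) and Bax like Sec22c (r = 0.80). The lowest were Bak1 with Car2 (r = 0.77) and Bcl2l1 with Rsu1 (r = 0.75). These are descriptions of the highest of many correlations.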

How the data were processed

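RNA-seq was made from FACS-purified mouse NK cells with an mRNA library kit, per the labels' protocols. The deposited values are TPM per gene made by the authors; STAR, RSEM and GRCm39 are named in the submitters' processing notes, and versions and the annotation are not given in the sources used here. They sum to between 934292 and 948786 per library in the subset table, which lists fewer genes. Read counts were not used here, so read depth is unknown. The labels give 1 batch date per table, and groups were compared only within tables. The labels call replicates biological.

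In each table log2(TPM + 1) was fitted with limma 3.58.1 (R 4.3.3) over all groups with an intensity trend, for genes whose mean reached 1 TPM, and p-values were adjusted (Benjamini-Hochberg) over all genes tested. Genes below an adjusted p of 0.05 were called. A log2 change on this scale understates changes of low genes. Promoters and transcripts were aligned with Biopython 1.88. All members and, within each of 3 lists, up to 8 called genes per comparison are named. Members and lists were chosen with earlier results of these data known. Alternatives were another pseudocount (0.1), no filter, other scalings, no trend, only the compared groups, a replicate block, groups from titles and leaving out each replicate. The gene most like Bcl2l11 is not reported here.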

Additional observations from a re-analysis of the deposited data

How the results depend on the processing

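Counts of members called kept their value, or went from 3 to 2, in 183 of 201 recomputations. Most of these were counts of 0 that stayed 0, so the figure says little about the calls themselves. A kept count need not hold the same members. Without WT replicate 2 the mean of the 3 subsets called Bcl2 and Bcl2a1d, and Bcl2a1d was not called in its main fit. With only the compared groups in the fit, 0 members were called in WT TN against TP cells and 0 in KO against WT SP cells. With no intensity trend, 1 member (Pmaip1) was called in KO against WT TN cells. Leaving out 1 library gave 0 to 1 members in KO against WT SP cells (0 without KO replicate 2), 0 to 1 in KO against WT TN cells (Pmaip1, without WT TN replicate 3), 0 to 3 with ionomycin and 0 to 1 on NKp46 and DNAM-1 antibodies. For the mean of the 3 subsets, added after the values were seen, the count of 3 became 1 with a pseudocount of 0.1 (Bcl2), 0 with no filter, 1 with no intensity trend (Pmaip1) and 0 to 2 with 1 mean left out. On NKp46 and DNAM-1 antibodies the log2 change of Atf4 was 0.0093 with groups from the titles, against -0.62 with groups from the columns. Counts over all genes moved more: with only the compared groups 157 became 43 (WT TN against TP), 23 became 12 (WT SP against TP), 46 became 6 (WT TN against SP), and KO against WT 191 became 91 (TP), 162 became 84 (SP) and 86 became 32 (TN). With 1 library left out, 418 became 43 to 712 with ionomycin, 59 became 31 to 311 on NKp46 and NKG2D antibodies, 107 became 26 to 604 on NKp46 and DNAM-1 antibodies and 223 became 69 to 121 for the mean of the subsets, while KO against WT gave 108 to 151 (TP), 88 to 163 (SP) and 52 to 114 (TN). With no filter these were 185 (ionomycin), 45 (NKp46 and DNAM-1) and 99 (mean of the subsets), and with no intensity trend 172 with ionomycin and 92 for the mean. Groups from the titles gave 0 and 1 genes on the antibody pairs. The cause of these shifts was not tested.

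Replicate numbers were not shown to pair the libraries: deviations of same-numbered libraries correlated at 0.01, 0.06 and 0.06 on average in the subset, ionomycin and antibody tables. With a replicate block 1 member (Bcl2a1b) was called with ionomycin and 3 (Bcl2, Bak1 and Bcl2a1d) on NKp46 and DNAM-1 antibodies, while 107 genes called in all became 528, and 59 became 239 on NKp46 and NKG2D antibodies. Cycs in WT TN against SP cells had an adjusted p of 0.0681 with the block. No other count of members changed in the comparisons refitted with the block, and the mean of the subsets was not refitted with it. No scaling moved the median change of all genes by more than 0.06 (log2). With 3 libraries a group and no read depth, differences in NOXA and A1 near a few TPM carry wide intervals.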
